A study of Cavia porcellus with 9 samples.

Results

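The white light retinas of this guinea pig series make up 3 of its 9 RNA sequencing libraries, taken as the columns titled 6od, 6os and R-23od-B of the deposited count table. They are described here without a contrast, as levels and ranks across 19962 genes. The animals were male Dunkin-Hartley guinea pigs (Cavia porcellus), labelled tri-color, with no genotype or agent named. They were obtained at 2 weeks of age, kept for 8 weeks under white light on a cycle of 12 hours light and 12 hours dark, and are labelled as 12 weeks old at sampling. The remaining 6 libraries come from animals reared under green or blue light and were not analysed here. Libraries 1 and 2 carry the animal label 6 with the eye codes od and os, and library 3 carries the label R-23 with od and a suffix "-B" that the labels leave unexplained. The 3 libraries therefore stand for 2 animal labels, and every mean ± SD below (n = 3) measures the spread between libraries, which is partly that between eyes of 1 label.

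The retina turns light into neural signals in layers. Rods, the photoreceptors of dim light, and cones, those of daylight and colour, close their cation channels when a photon activates an opsin and the G protein transducin. Their glutamate output falls, bipolar and horizontal cells read it, amacrine cells shape the signal, and ganglion cells send it to the brain. Müller glia span all layers and recycle transmitter. The guinea pig retina is dominated by rods, has cones for middle and for short wavelengths, and has no blood vessels of its own, so that it is supplied from the choroid through the pigment epithelium.

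A level is given as CPM, the counts of a gene per 1000000 counts of its library. Libraries 1, 2 and 3 held 66699889, 70630932 and 62155041 counts, with a count for 15906, 15881 and 15932 genes. For a gene at 0 counts, the upper limit on its level was set at 3 counts, or 0.0450, 0.0425 and 0.0483 CPM in libraries 1 to 3. Low counts favoured multiples of 4, which made up 46.1% of the values from 1 to 16 but are 25% of those whole numbers. If 4 counts make 1 read, these limits become 0.180, 0.170 and 0.193 CPM. Reads per gene rise with transcript length, and transcript lengths were not used here. A rank therefore orders genes by the share of counts they drew, and the levels of different genes are set side by side without a fold. In bulk tissue a lower level of a marker can stand for fewer cells of its type or for less RNA per cell, and these cannot be told apart. Counts of list members highest in 1 library are given below without the share of all genes highest there, which was not computed. Such counts do not separate a list from its library as a whole. In library 2, genes of long genomic span were mostly lower than in the others, and the pigment epithelium and lens lists had higher sums. Other lists leaned to library 2 as well, with 12 of 16 Müller glia genes and 12 of 21 housekeeping genes highest there. Each pair of libraries differed beyond counting error, measured as the mean chi-square per detected gene against equal levels. It was 62.3 for libraries 1 and 2, 44.1 for libraries 1 and 3, and 57.7 for libraries 2 and 3. With counts divided by 4 it was 11.0 to 15.6, and no p-value was computed.

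Rod genes led the white light retina. Sag, the arrestin of rods, was at 13039, 14140.2 and 13840.2 CPM in libraries 1 to 3, and Gnat1, the alpha subunit of rod transducin, at 11522, 12312 and 12009.8 CPM. Both were lowest in library 1 and highest in library 2. The 10 most abundant genes held 10.7% ± 0.412 of the counts, the 100 most abundant 23.1% ± 0.644 and the 1000 most abundant 52.8% ± 0.857. The counts were nevertheless spread over many genes. Reaching 50% of them took 854 genes, and reaching 90% took 5740.

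**Figure D1:**
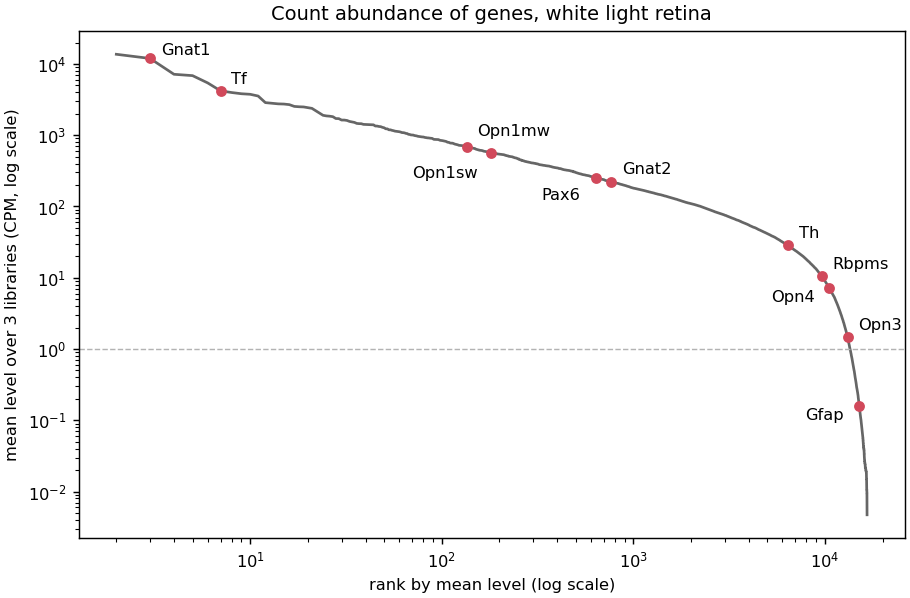
Mean level of each gene with a count (CPM over 3 libraries, log axis) against its rank (log axis), for the genes reported here, with named genes as red points and a dashed line at 1 CPM. Gnat1 and Tf lie at the upper end, Opn1mw and Opn1sw lie between ranks 100 and 200, and Opn3 and Gfap lie on the steep end of the curve.

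Of the 25 genes with the highest mean level, 7 were members of the rod list and 4 of the list of genes shared by rods and cones, 4 belonged to glycolysis and 2 to Müller glia. All but 3 of the 25 were among the 25 highest of every single library. After the rod genes ranked Aldoc, the brain form of the glycolytic enzyme aldolase, at 6223, 6846 and 7508 CPM, and Gapdh at 4999, 5526 and 5733 CPM. Aldoc and Gapdh were lowest in library 1 and highest in library 3. Tf, which encodes the iron carrier transferrin and is listed in the table under the locus LOC100726872, ranked 7 at 3912, 4487 and 4200.4 CPM. Glul, the glutamine synthetase of Müller glia, ranked 9 at 3669.8, 4115 and 3677 CPM.

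In all, 6 of these 25 were in no list. Beside Tf, these included Agpat3, an acyltransferase of phospholipid synthesis (2508 ± 110.4 CPM), Ckb, the brain creatine kinase (2494 ± 165 CPM), and Syp, the synaptic vesicle protein synaptophysin (1903 ± 130.4 CPM). Reads of Gapdh, Eef1a1 and other genes with near-identical copies may have been divided by the authors' counting, so their levels are uncertain.

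**Figure D2:**
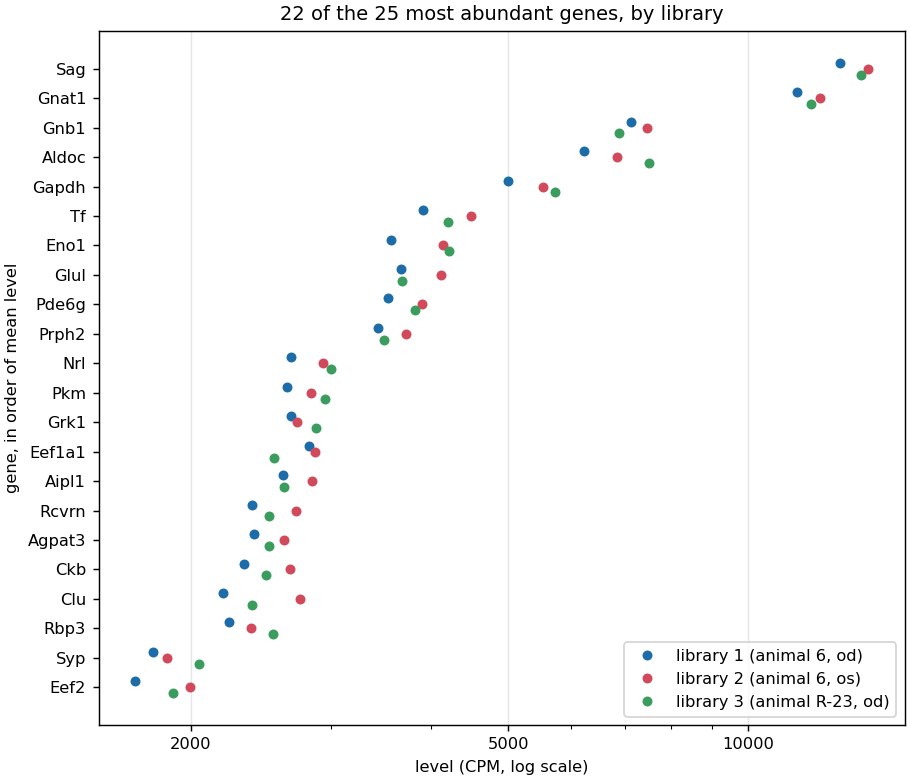
Level (CPM, log axis) of 22 of the 25 genes with the highest mean, ordered from the top, with 1 point for each of the 3 libraries. The libraries of a gene lie closer together than Sag and Eef2, most genes are lowest in library 1, and Aldoc and Gapdh are highest in library 3.

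All 18 genes of the rod list reached 1 CPM in every library, 11 ranked among the first 100, and their median of 1132 CPM stands beside 27.0 CPM over the 13189 genes that reached 1 CPM in every library. Within rod transducin, the beta subunit gene Gnb1, which other cells also express, was at 7131, 7478 and 6881 CPM, and the gamma subunit gene Gngt1 at 190.2, 157 and 169 CPM. Of the phosphodiesterase that transducin activates, the inhibitory subunit Pde6g stood at 3537, 3895 and 3826 CPM. The catalytic subunits Pde6a and Pde6b stood at 1319 ± 46.6 CPM and 1451 ± 125 CPM. The subunits thus spanned ranks 10 to 48.

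The rod channel that closes in light is built from Cnga1 and Cngb1. Cnga1 was at 119, 60.4 and 105 CPM, so that library 2 lay well below the other libraries, and Cngb1 (locus LOC100714217) was at 194, 156 and 147 CPM. Slc24a1, the exchanger that clears calcium from the rod outer segment, was at 738 ± 42.6 CPM. For shut-off, the photoreceptor kinase Grk1 was at 2669.8, 2721 and 2873 CPM and Rcvrn, its calcium-dependent inhibitor recoverin, at 2389, 2713 and 2508 CPM. The complex that speeds transducin's return to rest consists of Rgs9, Gnb5 and Rgs9bp, which were at 312 ± 29.4 CPM, 1120.02 ± 48.2 CPM and 409 ± 70.0 CPM. Cyclic GMP is restored by guanylate cyclases, of which Gucy2d was at 773 ± 8.73 CPM and Gucy2f at 75.7 ± 10.1 CPM. Their calcium-sensing activators Guca1a and Guca1b were at 1536 ± 117 CPM and 946 ± 117 CPM. Each of these steps of the rod cascade was therefore present, down to Gucy2f at rank 2997.

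Cone genes were present at lower ranks. Of 16 listed, 13 were in the table and all 13 reached 1 CPM in every library, with a median of 132 CPM. They summed to 0.424%, 0.425% and 0.392% of the counts. Gnb3, the beta subunit of cone transducin, was at 1054, 1129.6 and 1076 CPM, and Pde6h, the inhibitory subunit of the cone phosphodiesterase, at 919.9, 942 and 744 CPM. The alpha subunit Gnat2 was at 278, 206 and 185 CPM and the gamma subunit Gngt2 at 215, 236 and 235 CPM. Gnat2 was thus highest in library 1, where Gngt2 was lowest. The catalytic subunit Pde6c stood at 88.5, 51.5 and 62.8 CPM, and the channel subunits Cnga3 and Cngb3 at 36.9 ± 1.42 CPM and 31.6 ± 6.33 CPM. Grk7, a kinase of cone opsins, was at 147, 150.2 and 99.4 CPM, lowest in library 3. Thrb and Rxrg, nuclear receptors that set cone opsin identity, were at 47.8 ± 4.64 CPM and 114 ± 1.02 CPM. Arr3, Guca1c and Opn1lw have no row under these symbols and were not analysed here.

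Both cone opsins ranked among the first 200 genes. Opn1mw, the middle-wavelength cone pigment, was at 649, 739 and 661 CPM and ranked 135. Opn1sw, the short-wavelength cone pigment, was at 593, 543 and 579.99 CPM and ranked 181. Opn1mw was highest and Opn1sw lowest in library 2. Within the cone opsins, Opn1mw drew 52.3% of the counts in library 1 (95% Wilson interval 51.9 to 52.6%), 57.6% in library 2 (57.3 to 58.0%) and 53.3% in library 3 (52.9 to 53.6%). These intervals cover counting error only. With counts divided by 4 the interval of library 2 widens to 57.0 to 58.3%. The eyes of animal label 6 therefore lay further apart in this share than library 1 lay from library 3, by more than counting error, and the mean was 54.4% ± 2.85.

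Outside the cone pigments, Rgr, a retinal G protein-coupled receptor of Müller glia and pigment epithelium, was at 188, 332 and 202 CPM, highest in library 2. Rrh, the peropsin of the pigment epithelium, was at 28.4, 28.3 and 20.01 CPM. Opn4, the melanopsin of intrinsically photosensitive ganglion cells, was at 5.67, 5.63 and 10.4 CPM, from 378, 398 and 647 counts, and was highest in library 3. Opn3, or encephalopsin, was at 1.72, 0.580 and 2.12 CPM. Opn5, the violet-sensitive neuropsin, had 0 counts in each library, with an upper limit in library 3, the shallowest, of 0.0483 CPM, or of 0.193 CPM if 4 counts make 1 read.

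**Figure D3:**
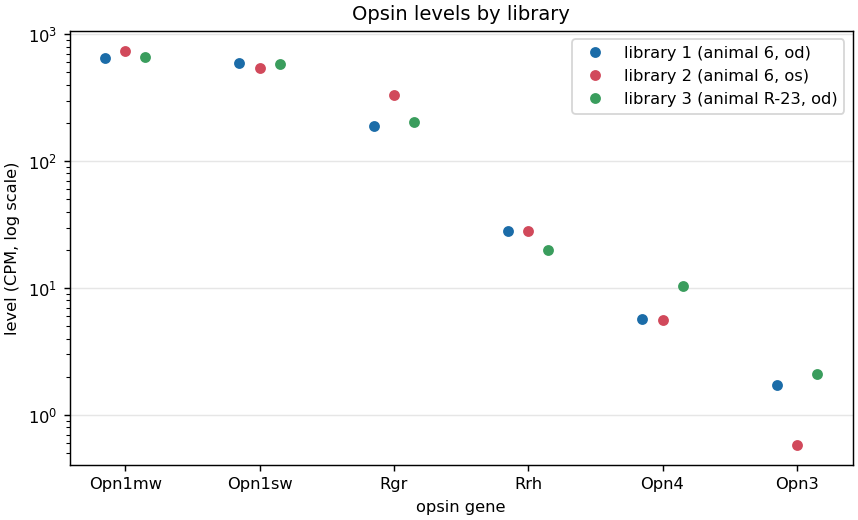
Level (CPM, log axis) of 6 opsin genes with a count in each of the 3 libraries, 1 point per library. Opn1mw is highest and Opn1sw lowest in library 2, Rgr is highest in library 2, and Opn4 is highest in library 3. Opn5, with 0 counts, is not drawn.

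Structural and maintenance genes common to rods and cones had a median of 568 CPM, with 23 of 24 members at 1 CPM in every library and 9 among the first 100 ranks. Prph2, a tetraspanin of the outer segment disc rim, was at 3431, 3721 and 3495 CPM, and its partner Rom1 (locus LOC100732195) at 289, 317 and 341 CPM. Aipl1, a chaperone needed to assemble the phosphodiesterase, was at 2614, 2834 and 2614 CPM. Unc119, which carries lipid-modified proteins to the outer segment, was at 1513 ± 74.5 CPM, and Cdhr1, a photoreceptor cadherin, at 1415 ± 77.2 CPM. Rp1, a microtubule-associated protein of the outer segment axoneme, was at 289.6, 104 and 272 CPM, so that library 2 had far less than libraries 1 and 3. Pdc, or phosducin, which binds transducin's beta and gamma subunits, showed the same order at 311, 175 and 305 CPM. Impg1 and Impg2, proteoglycans of the matrix around photoreceptors, were at 99.2 ± 14.9 CPM and 213 ± 35.3 CPM. Eys, an outer segment protein linked to retinitis pigmentosa in people, had 0 counts in each library.

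The visual cycle returns retinal to its light-sensitive form, partly in photoreceptors and partly in the pigment epithelium. All 16 members reached 1 CPM in every library. On the photoreceptor side, Rbp3, the retinoid carrier of the space between the layers, was at 2232, 2378 and 2538 CPM, the flippase Abca4 at 1921, 1835 and 1706 CPM, and the retinol dehydrogenases Rdh8 and Rdh12 at 297 ± 21.3 CPM and 319 ± 31.5 CPM. On the epithelial side, the isomerase Rpe65 was at 45.6, 142 and 15.1 CPM, the acyltransferase Lrat at 4.93, 12.7 and 2.00 CPM and the dehydrogenase Rdh5 at 20.1, 51.9 and 14.3 CPM. The photoreceptor genes varied little between libraries, whereas these 3 epithelial ones were highest in library 2 and lowest in library 3. The other visual cycle members on the pigment epithelium list did not follow that order. Rgr (188, 332 and 202 CPM) and Stra6 (27.2, 43.2 and 32.5 CPM) were highest in library 2 but lowest in library 1. Rrh (28.4, 28.3 and 20.01 CPM) was lowest in library 3 but no higher in library 2 than in library 1.

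Transcription factors of retinal cell identity were nearly all detected. Nrl, which directs precursors to the rod fate, was the only factor of the list among the first 100 ranks, at 2674, 2928 and 3001 CPM and rank 12. Crx (locus LOC100721038), the homeobox factor of all photoreceptors, was at 602, 629 and 669 CPM, Nr2e3, which represses cone genes in rods, at 336 ± 17.1 CPM, and Neurod1 at 120.2 ± 14.6 CPM. Otx2 was at 210.2 ± 6.13 CPM, and Pax6, a factor of amacrine and ganglion cells, at 251 ± 12.7 CPM. Of the eye field factors, Rax was at 137 ± 17.3 CPM, Six3 at 118 ± 5.59 CPM, Lhx2 at 71.0 ± 4.55 CPM and Six6 at 40.4 ± 3.02 CPM. Rorb, a nuclear receptor upstream of Nrl, was at 51.0, 33.6 and 58.2 CPM and was lowest in library 2. Of 27 listed factors in the table, 26 reached 1 CPM in every library, the exception being Lhx1.

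Photoreceptors and bipolar cells release glutamate at ribbon synapses, and all 23 measured members of that list reached 1 CPM in every library, with a median of 253 CPM. Slc17a7, the vesicular glutamate transporter VGLUT1, was at 1329, 1427 and 1440.3 CPM. Ctbp2, whose RIBEYE form builds the ribbon, was at 579 ± 20.9 CPM; the table does not separate its isoforms. Complexin genes Cplx3 and Cplx4, of ribbon terminals, were at 918 ± 29.2 CPM and 84.2 ± 7.61 CPM. Of the photoreceptor calcium channel, the pore gene Cacna1f was at 560.2, 508 and 605 CPM, Cacna2d4 at 439, 349 and 401 CPM and the regulator Cabp4 at 257, 217 and 211 CPM. The scaffolds Bsn and Pclo were at 231 ± 20.4 CPM and 253 ± 35.2 CPM. Elfn1 and Lrit1, synaptic adhesion proteins of photoreceptors, were at 128 ± 9.19 CPM and 386 ± 29.0 CPM. Dmd, whose product dystrophin is found at the photoreceptor terminal, was at 53.5, 21.2 and 36.7 CPM, lowest in library 2.

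**Figure D4:**
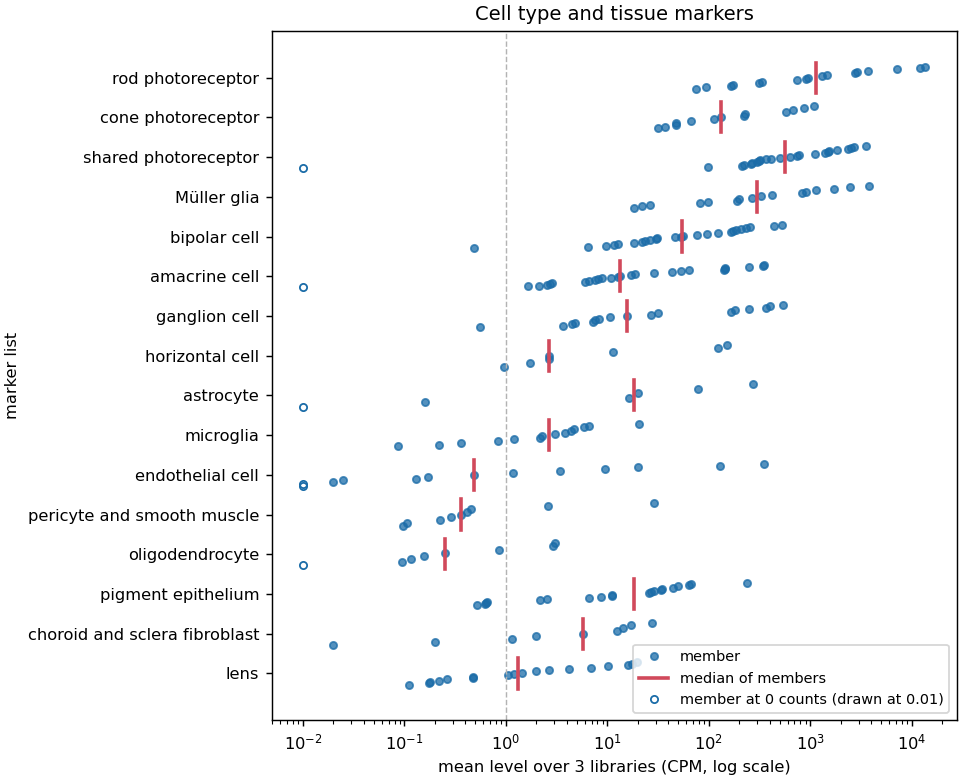
Mean level over 3 libraries (CPM, log axis) of the reported members of 16 marker lists, with the median of the whole list as a red bar and members at 0 counts drawn as open circles at 0.01. Rod and shared photoreceptor genes lie to the right, and most endothelial, pericyte and oligodendrocyte genes lie left of the dashed line at 1 CPM.

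All 26 bipolar cell markers had counts, and 25 reached 1 CPM in every library, with a median of 54.7 CPM. Grm6, the metabotropic glutamate receptor of ON bipolar cells, was at 509.6, 551 and 517 CPM. Its effector channel Trpm1 was at 142, 103 and 126 CPM, the scaffold Gpr179 at 233 ± 21.6 CPM, and Nyx, a synaptic protein that localises Trpm1, at 12.8 ± 2.15 CPM. Sebox, a homeobox gene of rod bipolar cells, was at 415, 436 and 469 CPM, and Prkca and Pcp2, markers of the same cells, at 255 ± 20.4 CPM and 164 ± 18.3 CPM. OFF types were represented by Grik1, a kainate receptor, at 55.5 ± 8.52 CPM, Tacr3 at 6.51 ± 0.857 CPM and Neto1 at 9.70 ± 1.35 CPM. Fezf1 stayed under 1 CPM, at 0.540, 0.198 and 0.708 CPM.

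Horizontal cell genes drew few counts apart from those shared with other neurons. Calb1, or calbindin, was at 139, 127 and 104 CPM and Prox1 at 169, 139 and 145 CPM, and both also mark other retinal neurons. The more specific Onecut1, Onecut2, Lhx1 and Gja10 stood at 3.24, 1.83 and 2.94 CPM, 2.65 ± 1.12 CPM, 0.960 ± 0.270 CPM and 1.73 ± 0.276 CPM. Of the 7 genes measured, 6 were highest in library 1, where the share over all genes was not computed. Onecut3 and Ptf1a were not analysed here.

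Amacrine genes reached 1 CPM in every library for 26 of 27, with a median of 13.4 CPM. Inhibitory transporters were among the first of the list by rank, together with Calb2 (calretinin) at 347, 344 and 370.1 CPM. Slc6a9, the glycine transporter GLYT1, was at 317, 340.5 and 363 CPM, and Slc32a1, the vesicular transporter of GABA and glycine, at 143, 151 and 145 CPM. The GABA-synthesising enzymes Gad1 and Gad2 were at 141 ± 3.40 CPM and 43.0 ± 6.79 CPM. Of the markers of starburst amacrine cells, the source of retinal acetylcholine, Chat was at 12.4, 12.2 and 15.5 CPM and Slc18a3 at 15.8, 17.2 and 18.0 CPM. Th, the enzyme of dopamine synthesis, was at 26.3, 27.0 and 32.4 CPM, while the dopamine transporter Slc6a3 was at 1.53, 2.11 and 1.35 CPM. Among neuropeptides, Npy was at 13.3, 14.4 and 10.3 CPM, Tac1 at 11.9, 11.1 and 9.57 CPM, Sst at 4.39, 7.82 and 5.78 CPM, Penk at 1.47, 3.62 and 3.38 CPM, Vip at 1.32, 1.53 and 3.49 CPM and Cck at 2.70, 3.17 and 1.77 CPM. Penk was lowest in library 1 and Vip highest in library 3. Slc6a5, the neuronal glycine transporter GLYT2, had 0 counts in each library.

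Among ganglion cell markers, genes of axons and neurons in general came first, with the neurofilament genes Nefl at 566, 494 and 565 CPM, Nefh at 349.9, 339 and 412 CPM and Nefm at 268, 211 and 271 CPM, Thy1 at 370.4, 382 and 461 CPM and Sncg at 183, 202 and 166 CPM. Genes closer to ganglion cell identity ranked later, with Rbpms at 9.19, 10.5 and 12.2 CPM and the POU factors Pou4f1, Pou4f2 and Pou4f3 at 4.47 ± 0.812 CPM, 3.63 ± 0.676 CPM and 7.54 ± 0.569 CPM. Slc17a6, the glutamate transporter VGLUT2 of ganglion cells, was at 30.3, 19.4 and 31.6 CPM. Eomes and Tbr1, which mark subsets, were at 4.80 ± 1.08 CPM and 0.561 ± 0.125 CPM. Of the 17 genes, 16 reached 1 CPM in every library, and 11 were highest in library 3, Rbpms and Opn4 among them. Other lists leaned to library 3 too, with 13 of 20 glycolysis genes and 7 of 14 microglia genes highest there. The share over all genes was not computed.

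Müller glia genes had a median of 297 CPM, and 5 of the 16 measured ranked among the first 100. Beside Glul, these were Clu (clusterin) at 2192, 2743 and 2387 CPM, Dkk3 at 1638, 1769 and 1737 CPM, the intermediate filament gene Vim at 1142, 1215 and 1066 CPM, and Ca2 (carbonic anhydrase 2, locus LOC100719293) at 969, 963 and 791 CPM. Apoe was at 718, 943 and 856 CPM. The glutamate transporter Slc1a3 was at 295, 283 and 219.98 CPM, the retinaldehyde-binding protein Rlbp1 at 309.5, 393 and 281 CPM, and the potassium channel Kcnj10 at 213, 226 and 126 CPM. Kcnj10 and Slc1a3 were lowest in library 3. Aqp4, the water channel of glial end-feet, was at 29.4, 17.6 and 18.8 CPM. In 12 of the 16 genes library 2 was highest, but the share of all genes highest there was not computed.

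Astrocyte genes divided sharply. Gfap, the astrocyte filament gene, which Müller glia also make under stress, was at 0.120, 0.297 and 0.0644 CPM, from 8, 21 and 4 counts. Pax2, the factor of optic nerve head astrocytes, had 0 counts in each library. The other 4 genes of the list, Slc1a2, S100b, Aldh1l1 and Gja1, reached 1 CPM in every library, with Slc1a2 at 325, 213 and 277 CPM, and are also made by other retinal cells.

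Genes of microglia, the resident immune cells, were detected at low levels, with a median of 2.66 CPM. Of the 14, 9 reached 1 CPM in every library, near the share of all genes, 13189 of 19962. Csf1r was at 17.3, 20.1 and 23.6 CPM, Cx3cr1 at 6.66, 6.74 and 6.19 CPM and C1qa at 4.38, 6.74 and 6.37 CPM. P2ry12 was at 1.499, 0.524 and 0.483 CPM and Tmem119 at 0.0750, 0.0566 and 0.129 CPM, from 5, 4 and 8 counts. The 14 genes summed to 48.6, 56.4 and 62.6 CPM.

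Most vascular genes drew few or no counts, although Flt1 and Kdr, receptors of vascular endothelial growth factors, were at 393, 366 and 299 CPM and 128, 124 and 139 CPM. The other endothelial markers ranged from 0 counts up to Esam, a junction protein at 21.9, 20.7 and 17.1 CPM. Plvap, a protein of vessel wall openings, was at 7.09, 10.3 and 11.0 CPM, Egfl7 at 3.15, 3.44 and 3.75 CPM and Vwf, von Willebrand factor, at 1.03, 1.10 and 1.42 CPM. Cldn5 and Sox17 had 0 counts in each library, Tie1 and Emcn had counts in library 1 alone (4 and 5), and Cdh5 and Tek were at 0.120, 0.0425 and 0.225 CPM and 0.0750, 0 and 0.434 CPM. Pecam1 was at 0.945, 0.396 and 0.129 CPM. Of 13 endothelial genes 6 reached 1 CPM in every library, with a median of 0.490 CPM over the 13. Of 9 pericyte and smooth muscle genes 2 did, Pdgfrb at 26.0, 30.7 and 30.9 CPM and Cspg4 at 2.13, 2.83 and 2.85 CPM, while Rgs5 was at 0.135, 0.0566 and 0.129 CPM. Of the oligodendrocyte genes 3 of 9 reached 1 CPM in every library. Mbp was at 4.11, 2.63 and 2.43 CPM, Mag at 0.120, 0.227 and 0 CPM, and Olig2 at 0 counts.

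Glycolysis genes were among the most abundant. The retina is known for glycolysis in the presence of oxygen, and 20 measured genes of that list drew 2.88%, 3.11% and 3.22% of the counts of libraries 1 to 3, with 11 among the first 100 ranks. Eno1 was at 3568, 4138 and 4212 CPM, Pkm at 2637, 2831 and 2946 CPM, Pgam1 at 1585, 1681 and 1631 CPM and Aldoa at 1264, 1351 and 1417 CPM. The hexokinases Hk1 and Hk2 were at 978 ± 36.7 CPM and 598 ± 26.6 CPM. Slc2a1, the glucose transporter GLUT1, was at 546, 607 and 806 CPM, highest in library 3. So were 13 of the 20 genes, without a share over all genes to set beside them. Eno2, the neuronal enolase, went the other way and was lowest there, at 1274, 1311 and 889 CPM. Ldhb, the lactate dehydrogenase subunit, was at 524, 541 and 534 CPM, and Ldha was not analysed here. Of 20 nuclear respiratory chain genes listed, 9 were measured, from Atp5f1b at 1096, 1132 and 1093 CPM to Sdhb at 98.0, 102 and 98.8 CPM. No listed Uqcr or Cox gene had a row under its symbol. No row of the table carried the name of a gene encoded in mitochondrial DNA.

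Genes typical of tissue next to the retina were also detected, at summed levels that differed between libraries. The 20 pigment epithelium genes summed to 533, 961 and 483 CPM. Of these sums Rgr, also a gene of Müller glia, gave 188, 332 and 202 CPM. Of the 20 genes, 14 were highest in library 2, and the share of all genes highest there was not computed. Ttr, the thyroid hormone and retinol carrier transthyretin, was at 40.6, 89.0 and 18.1 CPM, Pmel, a melanosome protein, at 40.5, 70.0 and 22.2 CPM, and Best1, a chloride channel, at 23.4, 36.8 and 21.2 CPM. Slc16a8, the lactate transporter of the epithelium, was at 6.00, 23.1 and 4.38 CPM. The melanin enzymes Tyr, Tyrp1 and Dct were at 0.517 ± 0.165 CPM, 0.618 ± 0.579 CPM and 0.650 ± 0.0834 CPM. Slc45a2, another pigment gene, varied little, at 32.7, 32.3 and 35.8 CPM. The lens list summed to 65.6, 113.5 and 73.8 CPM, and 15 of 18 genes were highest in library 2. Cryaa, or alpha-A crystallin, was at 0.705, 17.8 and 2.40 CPM, and Crygs at 0.495, 4.91 and 0.531 CPM, while Cryab and Cryz, the zeta-crystallin of guinea pig lens, were at 17.3, 21.9 and 19.5 CPM and 15.2, 16.9 and 15.5 CPM.

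Genes typical of other tissues drew few counts. The 9 genes of the choroid and sclera fibroblast list summed to 74.2, 77.9 and 89.3 CPM, with Fmod at 18.9, 28.9 and 35.3 CPM, Col1a2 at 10.6, 13.8 and 12.8 CPM and Dcn at 0.300, 0.241 and 0.0644 CPM. Skeletal muscle genes summed to 19.8 CPM in library 1, 10.1 in library 2 and 8.41 in library 3. Library 1 was highest in 8 of 9 of them, and its share over all genes was not computed. Myl1, a fast muscle myosin light chain, had 160 counts in library 1 and 0 in libraries 2 and 3, and Acta1, skeletal muscle actin, was at 4.72, 0.340 and 0.274 CPM. Krt12, the corneal epithelial keratin, was at 4.59, 4.35 and 5.05 CPM. Of the 4 blood genes measured, Slc4a1, the anion exchanger of red cells, was at 2.29, 2.96 and 2.70 CPM, and Cd3e, a T cell receptor subunit, had 9, 5 and 0 counts. Alas2 and Ms4a1 had 0 counts in each library, and haemoglobin genes were not analysed here.

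At the other end of the scale, 3363 of 19962 genes (16.8%) had 0 counts in each library, and another 3070 had a count but a mean under 1 CPM. These 3070 drew 0.0861% of all counts. In contrast, the 71 genes over 1000 CPM drew 20.5%, and the 2181 genes between 100 and 1000 CPM drew 49.0%. The silent genes were 2096 numbered loci and 1267 genes with a symbol. By the type given in the names table, 143 of 182 pseudogenes in the table were silent, as were 2960 of 18521 protein-coding genes. Of the 28 genes chosen as typical of other organs, 15 had 0 counts in each library. Among them were Alb (albumin, liver), Ins and Gcg (insulin and glucagon, pancreatic islets), Umod (kidney), Prm1 (testis) and Prl (pituitary). A single gene of that list, Pomc, the precursor of several pituitary hormones, reached 1 CPM in every library, at 19.0, 22.9 and 23.1 CPM. Nppa, Apoa1 and Lhb were at 0.378 ± 0.200 CPM, 0.363 ± 0.175 CPM and 0.502 ± 0.0964 CPM.

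The libraries resembled each other closely for most genes. Among 9762 genes with a mean of at least 10 CPM, the median range between the highest and the lowest library was 0.22 on the log2(CPM + 0.5) scale. The range stayed under 0.5 for 86.1% of these genes and exceeded 1, a 2-fold difference, for 202 (2.07%). The eyes labelled 6 were not the closest pair. Over the 13189 detected genes, 282 differed more than 2-fold between libraries 1 and 2 of that label, 92 between libraries 1 and 3, and 191 between libraries 2 and 3. The median absolute log2 difference was 0.16, 0.15 and 0.16 in the same order. Among the 202, library 2 was the one apart as the lowest in 133 and as the highest in 17, and without it 36 genes exceeded 2-fold between libraries 1 and 3. With 3 libraries from 2 animal labels no test was made.

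Genes low in library 2 included Rora, a nuclear receptor of photoreceptors and the clock, at 116, 12.6 and 50.7 CPM, Rif1 at 25.01, 6.16 and 20.4 CPM and the zinc finger gene Znf292 at 31.9, 9.50 and 29.4 CPM. Btbd3 was at 93.5, 24.3 and 97.5 CPM and Zbed6 at 15.4, 6.16 and 19.8 CPM. Genes high in library 2 were led by Rpe65, with Slc16a8, Rdh5, Clic6 at 7.51, 22.9 and 2.40 CPM, Fam107a at 19.9, 47.1 and 11.1 CPM and Mgat1, a glycosyltransferase, at 42.4, 175 and 52.6 CPM. Library 3 was set apart by other genes. Sema7a, a membrane-anchored semaphorin, was at 244, 273 and 34.5 CPM, Tead3, a partner of Hippo pathway coactivators, at 86.1, 93.0 and 25.1 CPM, Mlc1, a glial membrane protein, at 35.0, 41.2 and 7.82 CPM, and Rfx7 at 55.5, 37.2 and 8.98 CPM. The unnamed locus LOC100713873 went the other way, at 12.5, 13.4 and 94.2 CPM. Library 3 was also the lowest in Phlda3, at 13.2, 16.7 and 4.36 CPM. It was the lowest too in Ca12 (10.7, 24.1 and 4.42 CPM), Ttr (40.6, 89.0 and 18.1 CPM) and Pmel (40.5, 70.0 and 22.2 CPM). In these last genes library 2 also lay well above library 1.

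The position of library 2 moved with gene span, the length from start to end of a gene in the genome, which is not transcript length. Detected genes with a span in the names table (94.9% of 13189) were divided into 5 equal classes. In the class of shortest span, up to 7.98 kb, the median gene of library 2 lay 0.07 above the mean of libraries 1 and 3 on the log2 scale, and 32.4% of genes were lower. In the class of longest span, from 84.7 kb, it lay at -0.19, and 77.1% of genes were lower. The classes between followed in order, at 0.04, -0.01 and -0.09. Library 1 showed the opposite order, from -0.06 to 0.14, and library 3 ran from -0.01 to 0.06. Each library is set here against the other two, so these values are not independent. The part of span, and of the pigment epithelium genes that are high in the same library, in the other differences of library 2 was not tested.

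**Figure D5:**
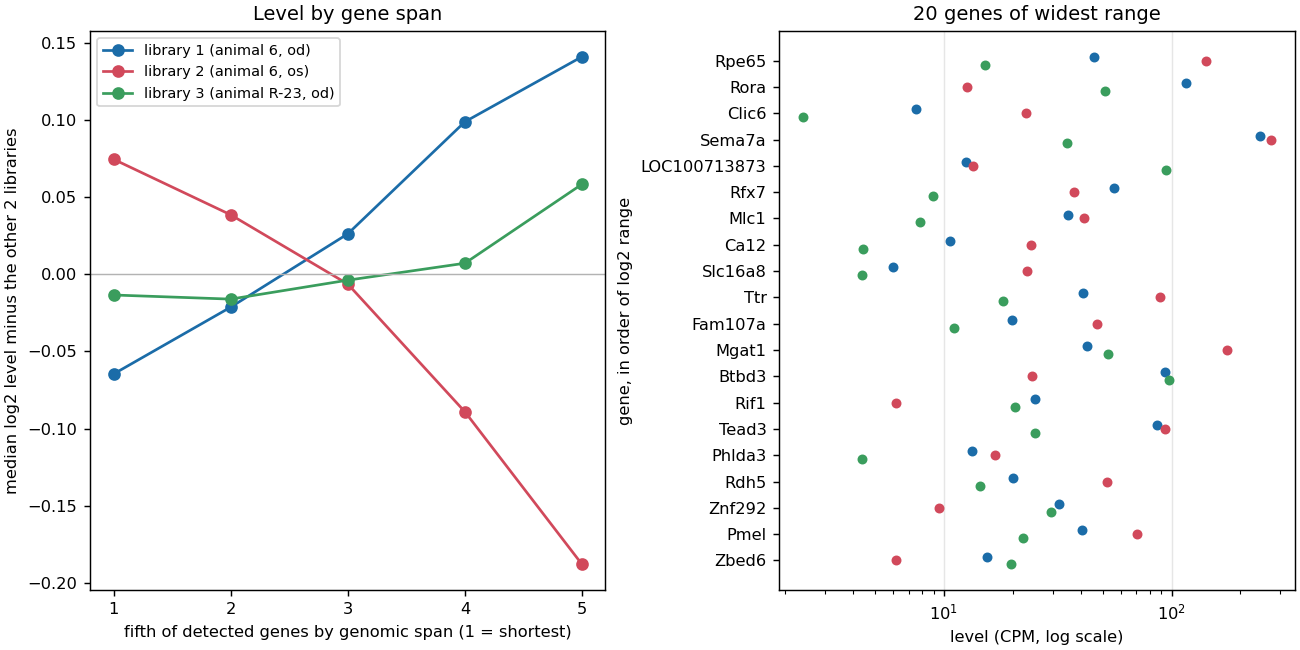
Left, median log2 level of each library minus the mean of the other two, over 5 classes of detected genes by genomic span (1 = shortest); right, level (CPM, log axis) of the 20 genes with the widest log2 range among those of at least 10 CPM, 1 point per library. Library 2 declines from the shortest to the longest class, and Rpe65 shows the widest range.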

How the data were processed

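RNA of flash-frozen retinas was extracted with Trizol and sequenced in pairs on an Illumina HiSeq, per the labels' protocols. The authors deposited 1 table of whole-number counts per gene for 9 libraries, of which the 3 white light columns were used. Low counts were in excess at multiples of 4, so a count may not be 1 independent read. Not given in the sources used here are the annotation, the genome build, the aligner, the counter and whether counting used strand. Transcript lengths and sequences were not used, so levels per length were not computed. Genomic span came from the start and end of each gene in the names table. Of 19962 gene identifiers 18734 matched the names table (mCavPor4.1), and 367 of 4147 numbered loci gained a symbol from it.

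Counts were divided by the total of each library to give CPM (Python 3.11.15, pandas 2.3.3). A gene was taken as detected at 1 CPM in each library. Spread between libraries is the range of log2(CPM + 0.5) over genes with a mean of at least 10 CPM. TMM factors (edgeR 4.0.16, R 4.3.3) served as an alternative scaling. The code was tested on simulated data. Libraries were grouped by the labels, no groups were compared and no p-value was computed.

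The libraries, the 28 gene lists and the tests were chosen with earlier results of these data known. The rule for named genes took the 25 of highest mean, every opsin, the 3 highest and 2 lowest members of each list with its silent members where 5 or fewer, and the 20 of widest range. Other list members were named by their role after their values were seen. Some genes that the rule or a list names are not reported here. Levels of genes with near-identical copies are uncertain, and intervals and floors cover counting error only, since the reads are not stated to carry molecular identifiers. Scaling, detection, pseudocount, replicate and list-filter alternatives were tried.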

Additional observations from a re-analysis of the deposited data

How the results depend on the processing

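Levels of the 376 named genes with a count stayed within 1 SD of the reported mean under TMM factors (1.019, 0.980 and 1.001) and median-of-ratios size factors. A mean of 3 cannot move by 1 SD when 1 library is left out, so those means were read as ratios over the 306 named genes detected. Without library 2, 11 of them moved by more than 1.5 times, Rpe65 from 67.4 to 30.4 CPM, with Clic6, Slc16a8, Mgat1, Lrat, Ca12, Fam107a, Ttr, Rdh5, Sox10 and Krt18, all of them lower. Without library 1 it was Rora (59.6 to 31.6 CPM), without library 3 the locus LOC100713873 (40.1 to 13.0 CPM), and with the mean over 2 animal labels no gene moved that far. With the total taken without the 10 most abundant genes, 175 of the 376 moved by more than 1 SD, by a factor of at most 1.12. Leaving out each library in turn gave 13254 to 13329 detected genes, 3600 to 3636 silent genes, 23 to 25 of the first 25 genes kept, 10.4% to 10.9% of counts in the first 10, 22.8% to 23.4% in the first 100, 52.4% to 53.3% in the first 1000, and an Opn1mw share of cone opsin counts of 52.8% to 55.4%. That share was 54.1% over animal labels. Detected genes numbered 13809 at 0.5 CPM, 10895 at 5 CPM and 15278 at 1 count, and silent genes 3511 with up to 3 counts and 4581 with up to 12.

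The number of genes over 2-fold between libraries, 202, varied with the settings. It was 220.0 with a pseudocount of 0.1, 180.0 with TMM, and 41 with log2(CPM + 1) and a mean of at least 50 CPM. Without library 1 it was 92, without library 2 it was 36 and without library 3 it was 154, where fewer libraries also narrow a range. List medians rose, by construction, when only members at 1 CPM in every library were kept. They became 633 CPM for genes shared by photoreceptors, 7.03 for horizontal, 15.2 for amacrine and 21.3 for ganglion cells, 48.8 for astrocytes, 4.36 for microglia, 14.7 for endothelium, 15.9 for pericytes, 3.06 for oligodendrocytes, 27.95 for pigment epithelium, 13.3 for fibroblasts, 10.1 for lens, 4.66 for cornea, 3.97 for skeletal muscle, 2.65 for blood, 406 for opsins and 21.7 for other organs.

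The animal-label mean of the cone opsin share, the counts divided by 4 and the libraries left out of the spread were chosen after seeing the data. Levels per length were not run, and the table named no mitochondrial or ribosomal RNA gene to leave out. No paired analysis was possible because no groups were compared. With 2 animal labels the spread between animals cannot be estimated, and a gene at 0 counts may lie at up to 0.0483 CPM in library 3, or 0.193 CPM if 4 counts make 1 read.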

Other observations

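Hox genes, which set position along the body, and Dlx genes were nearly all silent in the white light retina. This describes families chosen after their values were seen. Of 36 Hox genes in the table, 35 had 0 counts in each library, and the exception, Hoxd3, had 8 counts in library 2 alone. All 5 Dlx genes, homeobox factors of the forebrain and of early retinal development, had 0 counts. In contrast, Six3 and Six6, homeobox factors of the eye field, were at means of 118 and 40.4 CPM. Among secreted defence proteins and epithelial proteases, 13 of 14 beta-defensin genes and 7 of 11 kallikrein genes were at 0. Over all genes it was 3363 of 19962 (16.8%). The kallikreins were not uniformly silent, with Klk1 at 57, 89 and 57 counts and Klk7 at 4, 10 and 7. Of 29 keratin genes 11 were at 0 and 5 reached 1 CPM in every library, the first of them Krt8, a simple epithelial keratin, at a mean of 63.5 CPM. Of 81 genes of cytosolic ribosomal proteins 80 reached 1 CPM in every library, with a median of 279.6 CPM, though near-identical copies make single values uncertain.

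Small counts in the table did not decline smoothly. Over the 3 libraries 659 values equalled 4 and 162 equalled 3, 421 equalled 8 and 127 equalled 7, and 298 equalled 12 and 112 equalled 11. All 3 libraries showed this, with 195, 231 and 233 values of 4 beside 55, 58 and 49 values of 3. The excess was not confined to multiples of 4, since 403 values equalled 5 and 239 equalled 9.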
